A study of Mus musculus with 8 samples.

Results

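Open chromatin of mouse bone marrow stromal cells was mapped by ATAC-seq. The regions described here were open, that is called as a peak over Input, in the libraries titled ATAC1, ATAC2, ATAC5 and ATAC6 and in none of ATAC3, ATAC4 and ATAC7. Peaks of all 7 libraries were merged where they shared at least 1 base, which gave 50683 regions, and 957 of them (1.89%) had this pattern. The regions were chosen by the peak calls, so the presence of a peak in 4 libraries and its absence from 3 is the selection and received no test. All libraries came from wild type C57BL/6J mice aged 6 weeks, with no treatment named in the labels, and 1 Input library served as the control for every peak list. In the study, mesenchymal stromal cells (MSCs) that lacked CD31, CD45 and TER119 and carried Sca-1 and PDGFR-α were sorted into subpopulations by further surface markers. Which subpopulation went into which library is not in the labels, and the titles ATAC1 to ATAC7 are used as names. Each title had 1 library, no difference between libraries has a replicate check, and how many mice were pooled for a library is not given in the sources used here.

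The lists differed in length along the same line as the selection. The 4 libraries with a peak in these regions had the longest lists, with 24510 peaks in ATAC1, 32280 in ATAC2, 31479 in ATAC5 and 28969 in ATAC6, and the other 3 had 16027, 15650 and 15188 peaks in ATAC3, ATAC4 and ATAC7. When each list was restricted to its 15188 best-ranked peaks, 82 regions had the pattern in place of 957. When only peaks of at least 5-fold over Input were used, 1717 regions had it. The total number of reads in a library cannot be read from the peak lists, and reads of ATAC3, ATAC4 and ATAC7 at places without a peak were not analysed here. The factor by which the peak caller scaled a library to the shared Input was 1.01, 1.13 and 1.10 in ATAC3, ATAC4 and ATAC7, and 1.23, 1.58, 1.71 and 1.57 in ATAC1, ATAC2, ATAC5 and ATAC6. The libraries without a peak thus had the lowest factors. What the factor was computed from is not given in the sources used here, and the part of sequencing depth was not tested. The absence of a peak is a call at the threshold of a shorter list and was not tested as a loss of accessibility.

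The transposase used in ATAC-seq cuts DNA where nucleosomes are absent or loosely packed, so its peaks mark promoters, enhancers and binding sites of insulator proteins. Promoters of widely expressed genes are often rich in G, C and CpG and open in most cell types, whereas enhancers lie away from start sites and vary more between cell states. CTCF is a zinc finger protein that binds a long motif and anchors chromatin loops, and AP-1 is a family of Fos and Jun dimers that binds many enhancers of stromal and stimulated cells. MSCs of the marrow give rise to bone, fat and cartilage lineages and supply factors that maintain blood stem cells.

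Sequences of 9 regions are shown because they cover the kinds of element found among the 957. Each is the 200 bases around the centre of the merged region, read 5′ to 3′ on the + strand of the mouse genome NCBIM37 (mm9), the build of the files. Capitals mark a match to the CTCF motif or to the AP-1 motif (TGANTCA) on either strand. The window beside Stk11 (chr10:79577260-79577459) is the best-ranked region with a CTCF match over 1000 bases from every start site. The window at the promoter of Man1a2 (chr3:100489593-100489792) is 82.5% G and C and the intergenic window nearest to Emr1 (chr17:57474996-57475195) is 30.5% G and C, and neither has a match to these motifs.

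Stk11: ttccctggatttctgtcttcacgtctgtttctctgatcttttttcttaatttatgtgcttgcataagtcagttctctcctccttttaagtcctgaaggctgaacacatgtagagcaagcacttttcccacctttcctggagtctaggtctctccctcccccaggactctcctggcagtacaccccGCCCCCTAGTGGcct
Man1a2: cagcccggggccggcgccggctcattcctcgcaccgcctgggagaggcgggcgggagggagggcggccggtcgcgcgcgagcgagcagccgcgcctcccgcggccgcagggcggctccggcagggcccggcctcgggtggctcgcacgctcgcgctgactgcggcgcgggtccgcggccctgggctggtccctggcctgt
Emr1: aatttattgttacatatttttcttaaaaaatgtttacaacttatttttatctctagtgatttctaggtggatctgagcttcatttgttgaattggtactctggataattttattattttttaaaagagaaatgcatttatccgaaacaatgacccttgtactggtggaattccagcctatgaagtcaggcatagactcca

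Regions away from start sites with an AP-1 match are represented by an intron of Aff1 (chr5:104187618-104187817) and by intergenic windows near Cdon (chr9:35169824-35170023) and Uap1 (chr1:172066627-172066826). They were picked from the top of the list of such regions after their values were seen. The Aff1 window holds 2 AP-1 matches, and the Cdon and Uap1 windows hold 1 each.

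Aff1: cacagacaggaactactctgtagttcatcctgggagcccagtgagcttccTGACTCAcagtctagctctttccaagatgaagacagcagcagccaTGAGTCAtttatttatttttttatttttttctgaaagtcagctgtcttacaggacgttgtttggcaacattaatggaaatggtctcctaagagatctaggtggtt
Cdon: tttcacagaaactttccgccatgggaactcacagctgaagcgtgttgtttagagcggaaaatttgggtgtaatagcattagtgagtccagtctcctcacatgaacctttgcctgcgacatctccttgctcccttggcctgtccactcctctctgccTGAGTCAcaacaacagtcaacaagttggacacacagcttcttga
Uap1: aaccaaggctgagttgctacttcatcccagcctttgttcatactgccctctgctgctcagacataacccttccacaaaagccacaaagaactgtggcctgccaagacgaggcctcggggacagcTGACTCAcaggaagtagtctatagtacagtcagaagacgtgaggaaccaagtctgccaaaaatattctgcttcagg

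Regions with a CTCF match are represented by introns of Adora3 (chr3:105702763-105702962) and 3110009E18Rik (chr1:122093876-122094075) and by an intergenic window near Itih5 (chr2:10064467-10064666), picked in the same way. The 3110009E18Rik window holds a CTCF and an AP-1 match, a combination found in 2 of the 560 regions over 1000 bases from a start site.

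Adora3: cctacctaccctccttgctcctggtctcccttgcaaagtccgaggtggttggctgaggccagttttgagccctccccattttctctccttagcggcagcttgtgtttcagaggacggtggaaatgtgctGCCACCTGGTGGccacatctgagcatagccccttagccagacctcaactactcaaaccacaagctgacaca
3110009E18Rik: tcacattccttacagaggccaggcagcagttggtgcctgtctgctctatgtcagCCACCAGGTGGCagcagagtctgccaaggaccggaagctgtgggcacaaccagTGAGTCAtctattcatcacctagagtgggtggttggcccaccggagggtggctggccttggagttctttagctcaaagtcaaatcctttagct
Itih5: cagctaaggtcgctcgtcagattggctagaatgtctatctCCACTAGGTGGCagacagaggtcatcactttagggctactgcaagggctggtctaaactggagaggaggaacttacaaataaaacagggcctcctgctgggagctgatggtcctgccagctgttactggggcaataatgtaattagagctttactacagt

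Of the 50683 regions, 12384 held a peak of ATAC1, ATAC2, ATAC5 and ATAC6 with or without other libraries, and the 957 are 7.73% of those. A peak in exactly 4 libraries was found in 2912 regions, spread over 35 possible sets of 4 libraries. The set of ATAC1, ATAC2, ATAC5 and ATAC6 held 32.9% of them and was the largest. The next set, ATAC2, ATAC5, ATAC6 and ATAC7, held 527 regions (18.1%), and the smallest held 2. For comparison, exactly ATAC2, ATAC5 and ATAC6 shared 3374 regions, exactly ATAC1, ATAC5 and ATAC6 shared 439, and all 7 libraries shared 8428. These counts follow from the peak calls and describe the selection.

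**Figure D1:**
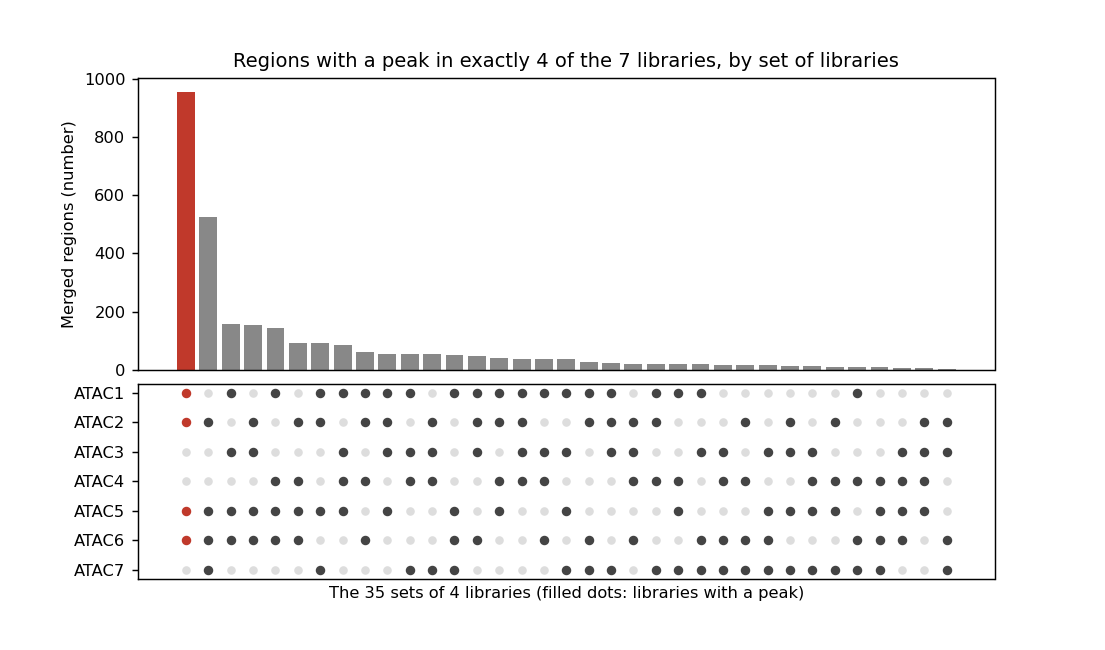
Number of merged regions (vertical axis) with a peak in exactly 4 of the 7 libraries, for each of the 35 sets of 4 libraries, with filled dots below naming the libraries of a set. The set of ATAC1, ATAC2, ATAC5 and ATAC6 (red) holds 957 regions and the next 527.

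The peaks in these regions were of middle to low rank. Within each library, peaks were given a percentile by their rank in the authors' list, with 100 as the best. The best-ranked peak of a region had a median percentile of 27.4 in ATAC1 (quartiles 14.02 and 41.3), 46.4 in ATAC2 (30.02 and 61.7), 51.9 in ATAC5 (38.9 and 61.9) and 46.1 in ATAC6 (32.0 and 57.6). In ATAC1, 12.9% of these regions lay in the better 50% of the list, compared with 43.5% in ATAC2, 54.4% in ATAC5 and 42.4% in ATAC6. A percentile depends on the length of the list, and the ATAC1 list was the shortest of the 4, so an equal rank gives a lower percentile there. The median ranks were 17790 in ATAC1, 17316 in ATAC2, 15152 in ATAC5 and 15611 in ATAC6. ATAC1 had the lowest percentile of the 4 libraries in 561 regions, but the worst rank in 312, against 337 for ATAC2, so the order of ATAC1 and ATAC2 depended on the measure. Regions open in all 7 libraries had medians of 80.4, 84.0, 85.1 and 83.7 in the same 4 libraries.

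In read counts, which cover the wider outer region from which a peak was cut, the median was 74 reads in ATAC1 over 16 in Input, 92 over 19 in ATAC2, 115 over 20 in ATAC5 and 97 over 19 in ATAC6. The authors' fold over Input had medians of 5.63, 7.81, 9.33 and 7.98 in that order. The lowest read count that any called peak had was 27 in ATAC3, 26 in ATAC4 and 28 in ATAC7, and 10% of their peaks lay at or under 70, 64.9 and 64 reads. Median counts of these regions in the 4 libraries were therefore above the range of the weakest calls in the other 3, but the libraries had different scale factors to Input and the counts cannot be compared directly. Across the 957 regions, the percentiles of ATAC2 and ATAC5 had a Pearson's r of 0.464, those of ATAC2 and ATAC6 0.457 and those of ATAC5 and ATAC6 0.437. Correlations with ATAC1 were lower, at 0.280 with ATAC5, 0.320 with ATAC6 and 0.130 with ATAC2. All libraries share the Input and the selection, regions are not replicates, and no p-value applies.

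Having no peak in ATAC3, ATAC4 and ATAC7 went with low rank in the other 4 libraries. Among regions with a peak of all 4, those with a mean percentile under 25 had none of the other 3 in 99 of 189 cases (52.4%), those from 25 to 50 in 596 of 1932 (30.8%) and those from 50 to 75 in 258 of 4197 (6.15%). From 75 to 90 the count was 1 of 3604 and above 90 it was 3 of 2462. Only 4 of the 957 regions had a mean percentile over 75 (262 over 50), and the mean ranged from 5.75 to 98.3 with a median of 41.7. The part of unequal list length and of peak strength in the pattern was not tested separately.

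**Figure D2:**
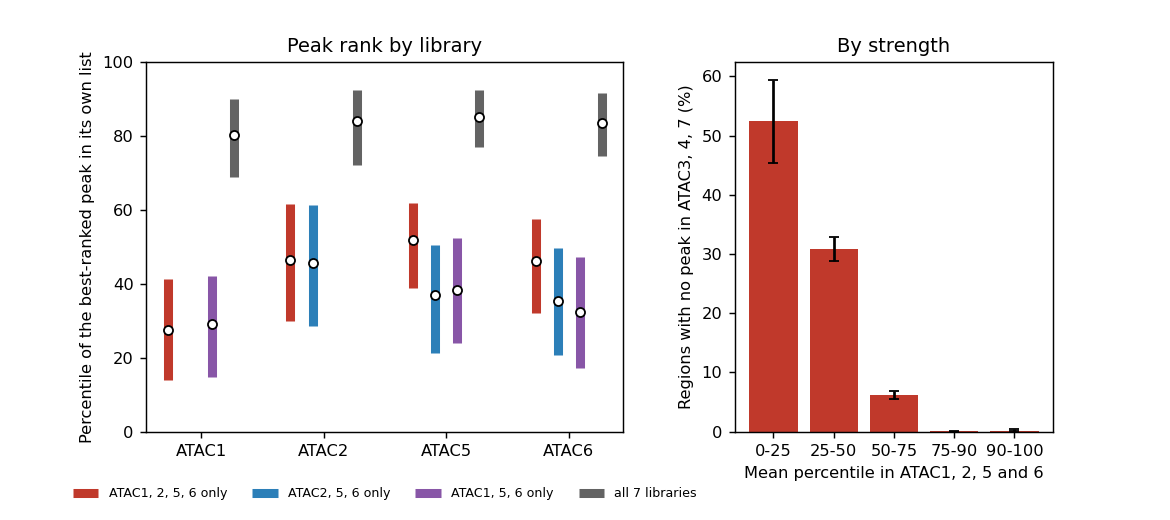
Left, percentile of the best-ranked peak of a region in its own library's list (100 is best), as medians (circles) and quartiles (bars) for 4 classes of region; right, percent of regions with a peak in ATAC1, ATAC2, ATAC5 and ATAC6 that had none in ATAC3, ATAC4 and ATAC7, by mean percentile, with 95% Wilson intervals. Regions open in these 4 libraries only (red) had medians between 27.4 and 51.9, under the 80.4 to 85.1 of regions open in all 7, and the percent without the other 3 was 52.4% in the weakest class and 0.0277% and 0.122% in the strongest classes.

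Most regions lay over 500 bases from any peak of the other 3 libraries. The rule excluded overlap, and these distances were not computed for other classes of region. The median distance to the nearest such peak was 14646 bases, 74 regions (7.73%) had one within 500 bases and 31 (3.24%) had outer regions that overlapped. The best-ranked regions lay closer, and 6 of the 10 with the highest mean percentile had a peak of another library within 500 bases and 3 had overlapping outer regions. Of the best 50, the counts were 12 and 7. Just inside the rule were a region at the promoter of Stk11ip (chr1:75518347-75518561), 4 bases from a peak of another library, and a region in an intron of Gm12824 (chr4:114144771-114144983), 7 bases away. Just outside it were a region near Ptger4 (chr15:5192278-5192620) and a region near Odz3 (chr8:49929089-49929845), each sharing 1 base with an ATAC3 peak, which held 104 reads over 32 in Input and 65 reads over 8, respectively.

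In 616 of the 957 regions (64.4%), the best-ranked peaks of all 4 libraries had bases in common, with a median of 45 shared bases. In the other regions the merged interval was joined by neighbouring peaks that did not all overlap. A single peak per library was found in 747 regions (78.1%). The merged width had a median of 331 bases with quartiles of 221 and 491 and a range from 25 to 1965.

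Promoters and distal elements were both well represented. A centre within 1000 bases of an annotated start site, called a promoter here, was found in 397 regions (41.5%, 95% Wilson interval 38.4% to 44.6%), which was near the 40.0% of all 50683 regions. Of the other 560 regions, called distal, 298 lay between genes (31.1%), 227 in introns (23.7%), 16 in coding exons, 16 in UTRs and 3 in exons of non-coding transcripts. Regions of exactly ATAC1, ATAC5 and ATAC6 were at promoters in 42.1% (37.6% to 46.8%), an interval that overlaps the first. The share was 19.5% (18.2% to 20.9%) for exactly ATAC2, ATAC5 and ATAC6, 14.4% (11.7% to 17.7%) for ATAC2, ATAC5, ATAC6 and ATAC7, and 85.7% (84.9% to 86.4%) for all 7 libraries. The interval of the regions described here thus lay above those of both of these classes without ATAC1. Intervals here and below cover counting error only, because regions of a library are not replicates.

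**Figure D3:**
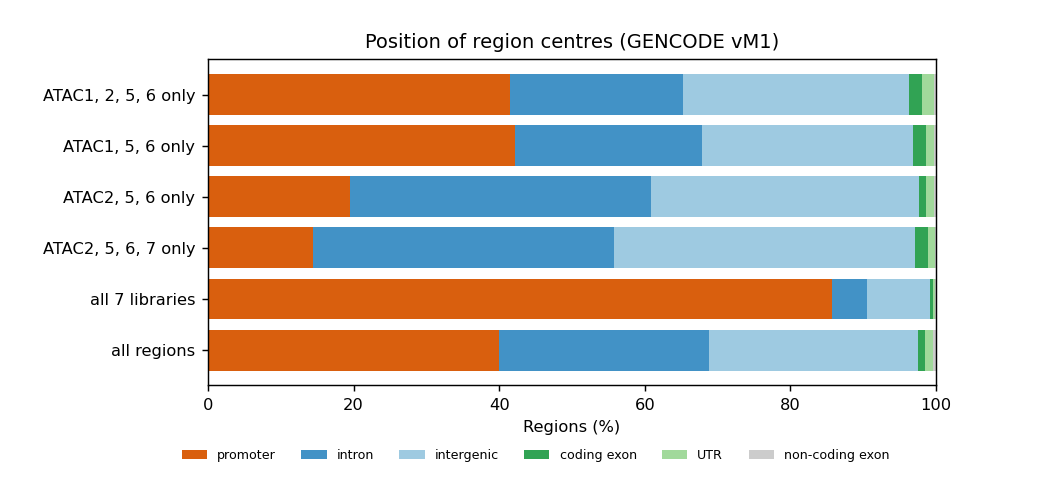
Percent of regions (horizontal axis) by the position of their centre in the GENCODE vM1 annotation, for 5 classes of region and all 50683 regions. Promoters made up 41.5% of the regions open in ATAC1, ATAC2, ATAC5 and ATAC6 only, 19.5% of those in ATAC2, ATAC5 and ATAC6 only and 85.7% of those in all 7 libraries.

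The 397 promoter regions lay at start sites of 394 genes, of which 367 start sites were protein-coding, 14 belonged to lincRNAs and 11 to processed transcripts. At 103 of the 397 (25.9%), another region with a peak of ATAC3, ATAC4 or ATAC7 lay at a start site of the same gene, and at 55 (13.9%) that region was open in all 7 libraries. For the remaining promoters no such region was found. The same shares were not computed for other promoter regions, so these values have no background. Of the 560 distal regions, 254 (45.4%) had a nearest gene whose start site was open in all 7 libraries, against 45.7% for all distal regions. On the chromosomes, 89 regions lay on chromosome 2 (9.30%, against 7.89% of all regions), 33 on chromosome X (3.45% against 1.99%) and 0 on Y.

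Base composition followed position. The median GC content of the 200-base windows was 55.5%, compared with 53.5% for all regions, 51.5% for exactly ATAC2, ATAC5 and ATAC6 and 65.5% for regions of all 7 libraries. It was 62.5% in the promoter regions and 51.5% in the distal regions. Promoter regions open in all 7 libraries had a median of 66.5% and distal ones 56.0%, each above the corresponding regions open in the 4 libraries alone. The distal regions lay a median of 13924.5 bases from the nearest protein-coding start site, and 55 of the 957 (5.75%) lay over 100000 bases from it.

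The distal regions held 2 motifs in shares that differed between classes of region. The AP-1 letters TGANTCA were found in 120 of 560 windows (21.4%, 18.2% to 25.02%), against 23.3% of all distal regions. The share was 32.0% (30.2% to 33.7%) in regions of exactly ATAC2, ATAC5 and ATAC6 and 38.6% (34.2% to 43.2%) where ATAC7 took part in place of ATAC1. In regions of exactly ATAC1, ATAC5 and ATAC6 it was 13.4% (9.74% to 18.1%). The regions of ATAC1, ATAC2, ATAC5 and ATAC6 thus lay between the classes with ATAC2 but not ATAC1 and the class with ATAC1 but not ATAC2, and their interval overlapped none of these 3 intervals, although it lay just above the last.

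CTCF matches were distributed differently. A match was found in 43 of the 560 distal windows (7.68%, 5.75% to 10.2%) and in 9.45% (6.43% to 13.7%) of the regions of exactly ATAC1, ATAC5 and ATAC6, with overlapping intervals. It was found in 2.73% (2.18% to 3.41%) for exactly ATAC2, ATAC5 and ATAC6, in 1.996% (1.05% to 3.75%) for ATAC2, ATAC5, ATAC6 and ATAC7, in 2.90% (2.09% to 4.01%) for all 7 libraries and in 3.79% of all distal regions. Among the 31 sets of libraries with at least 100 distal regions, the share of the present set was the 4th highest for CTCF and the 16th highest for AP-1. The highest CTCF share, 12.9% (18 of 139), was in regions of exactly ATAC1, ATAC2, ATAC4, ATAC5 and ATAC6. With ATAC7 in place of ATAC4 it was 3.86%, and with ATAC3 in place of ATAC4 it was 0.467%. The CTCF share did not go with ATAC1 as such, since it was 9.46% (74 of 782) in regions of exactly ATAC5 and ATAC6 and 1.47% in regions of ATAC1 alone. Windows with 50 to 60% GC gave 9.77% (6.70% to 14.02%) for CTCF and 19.9% (15.5% to 25.2%) for AP-1 in these regions, and 2.40% and 32.7% in those of exactly ATAC2, ATAC5 and ATAC6, with intervals apart. In those of exactly ATAC1, ATAC5 and ATAC6 the values in this range were 12.6% and 13.4%, with intervals (7.79% to 19.8% and 8.45% to 20.7%) that overlapped those of the regions described here. The match lay within 50 bases of the centre in 31 of the 43 CTCF regions and in 75 of the 120 AP-1 regions.

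Peak rank and reads of distal regions were compared with and without each motif. Distal regions with an AP-1 match had a median percentile of 16.9 in ATAC1 and 51.1 in ATAC2, and those without had 23.5 and 44.2. With a CTCF match the medians were 27.2 in ATAC1 and 43.1 in ATAC2, and without they were 21.9 and 45.6. In ATAC5 and ATAC6 the medians were 50.4 and 41.5 with AP-1 and 48.8 and 42.9 without, and 54.0 and 45.5 with CTCF and 48.8 and 42.3 without. In reads, regions with AP-1 had a lower median in ATAC1 alone (63 against 69), and regions with CTCF had a lower median in each of the 4 libraries (60 against 68 in ATAC1, 64 against 89 in ATAC2, 82 against 104 in ATAC5 and 66 against 87 in ATAC6). Percentile and reads thus differed in direction for CTCF in ATAC1, ATAC5 and ATAC6 and for AP-1 in ATAC6 (93.5 reads against 82.5), and these values were not tested. When the distal regions were split by mean percentile over the 4 libraries into the lowest 187, the middle 186 and the highest 187, AP-1 was found in 20.9%, 21.5% and 21.9% and CTCF in 5.88%, 9.14% and 8.02%, with overlapping intervals.

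Of the 18 other motifs searched, 15 had intervals that held the share of all distal regions, as AP-1 did. The RUNX letters TGTGGTT, bound by the Runx factors of bone and blood, were in 6.96% against 8.66% of all distal regions. The TEAD letters GGAATGT were in 3.21% against 3.64%, the C/EBP letters TTGCNNAAT in 2.14% against 2.46%, the EBF letters TCCCNNGGG in 3.39% against 4.18% and the E-box CAGCTG in 16.8% against 16.1%. In 3 motifs the interval lay above that share. The SP/KLF letters GGGCGGG were in 7.86% (5.90% to 10.4%) against 5.24%, and the ETS letters CCGGAAG in 3.57% (2.32% to 5.45%) against 1.96%. For the NF-kB letters GGGANTTTC the share was 2.14% (1.23% to 3.71%) against 1.12%. For the GATA letters AGATAAG it was 1.96% (1.10% to 3.48%) against 2.35%. GATA was at 0 of 451 windows in the class of ATAC2, ATAC5, ATAC6 and ATAC7 and at 0.479% in exactly ATAC2, ATAC5 and ATAC6. The other motifs searched were NFI half-site (TTGGCAG), CRE (TGACGTCA), IRF (GAAANNGAA), MEF2 (CTAAAAATA), homeobox (TAATTA), SOX (AACAATGG), NRF1 (GCGCATGCG), NFY (CCAATCA) and PU.1 (GAGGAAGTG), whose letters share a run with those of ETS, and each was in at most 5.71% of the distal windows. A match states that the letters are there and not that a factor was bound.

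**Figure D4:**
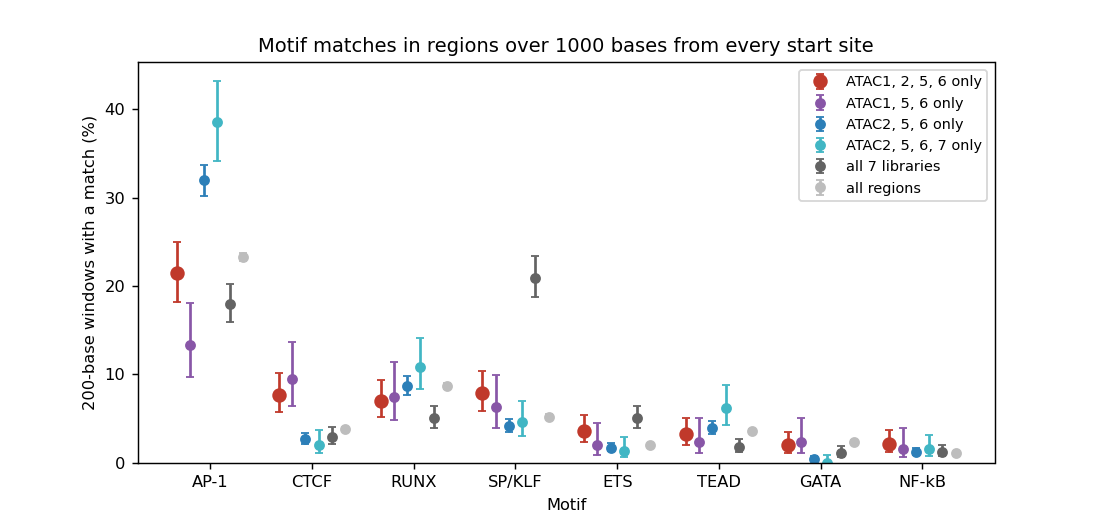
Percent of 200-base windows with a match (vertical axis) for 8 motifs in distal regions, by class of region, with 95% Wilson intervals. AP-1 was in 21.4% of the regions of ATAC1, ATAC2, ATAC5 and ATAC6 only (red) and 32.0% of those of ATAC2, ATAC5 and ATAC6 only (blue), and CTCF in 7.68% and 2.73%.

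In promoter windows, SP/KLF letters were in 118 of 397 (29.7%, 25.4% to 34.4%), near the 29.9% of all promoter regions and under the 42.5% of those open in all 7 libraries. ETS letters were in 24 (6.05%, 4.10% to 8.84%), against 14.3% (13.5% to 15.1%) for all 7 libraries, and NFY letters in 3.53% (2.11% to 5.83%) against 7.95%. All promoter regions had 8.33% and 4.63% for these motifs, values that the intervals held. AP-1 was in 16 promoter windows (4.03%, 2.496% to 6.45%), against 13.8% (11.4% to 16.7%) at promoters of exactly ATAC2, ATAC5 and ATAC6 and 2.44% at those of all 7 libraries, and the 5.41% of all promoter regions lay within the interval. CTCF was in 3 promoter windows (0.756%), against 0.690% of all promoter regions. The promoter regions were thus near the share of all promoter regions for these motifs, while their intervals lay under those of all 7 libraries for SP/KLF, ETS and NFY and under that of exactly ATAC2, ATAC5 and ATAC6 for AP-1.

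Of the 10 best-ranked regions, 7 were promoters. At the start site of Zswim6, which encodes a zinc finger protein, a region (chr13:108680340-108680470) held 2335 reads in ATAC1, 1460 in ATAC2, 3250 in ATAC5 and 2269 in ATAC6, over 164 to 190 in Input. Its peaks in the 4 libraries had no base common to all, and a peak of another library lay 98 bases away. At Rybp, a component of Polycomb complexes, the region (chr6:100237490-100237611) had 1454, 865, 1850 and 2185 reads over 134 to 160 in Input and a peak of another library 10 bases away. These 2 regions therefore stand beside peaks of the other libraries. Of the 10, the regions at Asl (87 bases), Kdm5c (284) and Mid1 (311) also had such a peak within 500 bases. So did the intronic region nearest to Gm17379 (234).

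Man1a2 was the strongest region without such a neighbour. The gene encodes a Golgi mannosidase that trims N-linked glycans, and the region shown above (chr3:100489447-100489938) had 1105 reads in ATAC1, 580 in ATAC2, 1136 in ATAC5 and 989 in ATAC6 over 103 to 124 in Input. The best-ranked peaks of the 4 libraries shared 243 bases, and their percentiles lay between 85.6 and 93.4. The nearest peak of ATAC3, ATAC4 or ATAC7 lay 196127 bases away. Its reads and percentiles in all 4 libraries exceeded the medians of regions open in all 7, whereas its folds over Input of 8.90 in ATAC2 and 13.1 in ATAC6 lay under the medians of 9.68 and 13.7.

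Among these 10 regions, 3 lay on chromosome X. A region in an intron (chrX:166435264-166435592) had 560, 505, 736 and 626 reads in ATAC1, ATAC2, ATAC5 and ATAC6 over 216 to 221 in Input, and its nearest protein-coding start site was that of Gm17379. The promoter of Mid1 (chrX:166416797-166417696), a ubiquitin ligase gene that crosses the pseudoautosomal boundary in laboratory mice, had 214, 182, 226 and 158 reads over 88 to 103 in Input. Input was high at both places, and the folds were 2.55 to 5.70. At Kdm5c, an X-linked histone demethylase gene, the region (chrX:148667771-148667997) had 176, 90, 149 and 191 reads over 3 to 15 in Input.

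Of the remaining regions of the best 10, 2 were promoters and 2 lay between genes. At Asl, which encodes the urea cycle enzyme argininosuccinate lyase, the region (chr5:130499737-130499949) had 162, 105, 225 and 177 reads over 18 to 38 in Input. At Lpin1, a phosphatidate phosphatase gene of fat synthesis, the region (chr12:16596226-16596638) had 154, 225, 224 and 197 reads over 45 to 49. The intergenic region nearest to Emr1, the gene of the macrophage marker F4/80, lay 23014 bases from its start site (chr17:57474879-57475312) with 126, 97, 107 and 114 reads over 4 to 8. The region with a CTCF match 1189 bases from Stk11, which encodes the kinase LKB1 (chr10:79577211-79577507), had 123, 118, 125 and 166 reads over 7 to 17. In the latter pair the folds were between 15.1 and 45.7.

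Among the distal regions, those next in rank were a region in a UTR of U2af2, a splicing factor gene (chr7:5011908-5012427), with 81, 155, 205 and 157 reads over 14 to 32 in Input, and an intronic region whose nearest protein-coding gene was A630001G21Rik (chr1:87648152-87648371), with 164, 248, 174 and 200 reads over 19 to 24. Of the AP-1 regions printed above, those at Aff1 and Cdon were lowest in ATAC1 by percentile and by rank. The Aff1 region, in a gene for a transcription elongation factor, had 95 reads in ATAC1, 220 in ATAC2, 226 in ATAC5 and 155 in ATAC6 over 16 to 18 in Input. The region near Cdon, a co-receptor of Hedgehog signals, had 159, 226, 219 and 195 over 21 to 22. The region near Uap1, a gene of amino sugar synthesis, had 78, 188, 153 and 129 over 11 to 25. The CTCF regions had 99, 130, 109 and 79 reads at Adora3, 71, 79, 103 and 88 near Itih5 and 62, 119, 121 and 117 in 3110009E18Rik, of which the last was lowest in ATAC1 by percentile and by rank.

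At the other end of the ranking were the 3 regions with the lowest mean percentile, from 5.75 to 8.39. In single libraries their percentile reached 24.3, at Gm9733 in ATAC6. The region near Mtrf1 (chr14:79794508-79794613) had 43, 35, 36 and 27 reads over 3 in Input, with an AP-1 match. The region at the non-coding E130102H24Rik (chr4:101027569-101028239) had 46, 48, 92 and 50 reads over 9 to 27, and the region nearest to Gm9733 (chr3:15194503-15194578) had 31, 37, 36 and 42 over 1, with a CTCF match. The counts near Mtrf1 and Gm9733 are close to the lowest of any peak in ATAC3, ATAC4 and ATAC7. Whether the 2 sets of libraries differ in those regions was not tested.

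**Figure D5:**
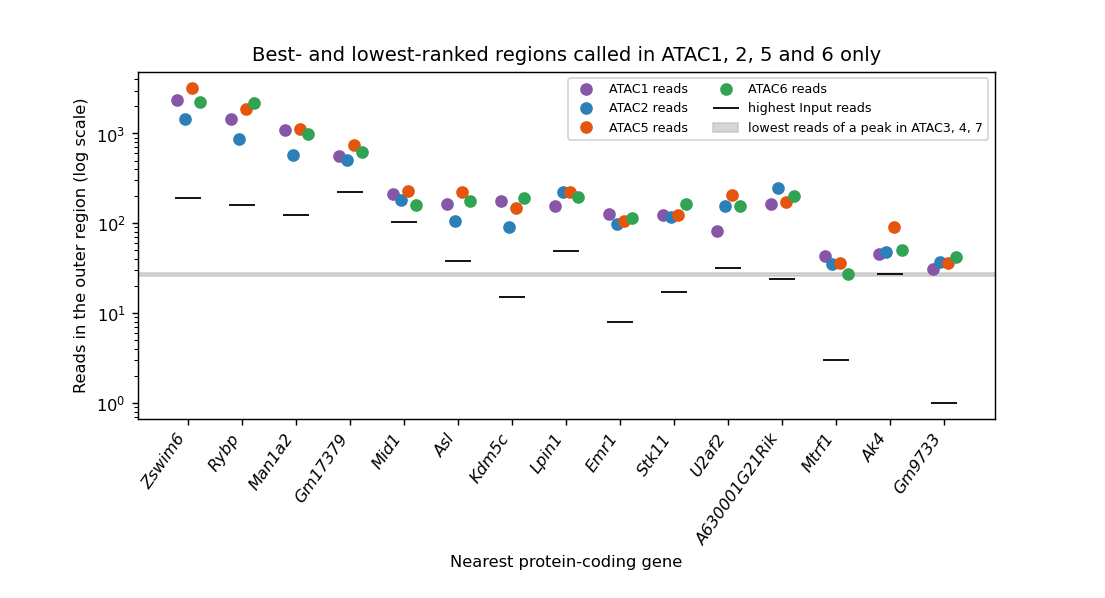
Reads in the outer region of the best-ranked peak (log scale) in ATAC1, ATAC2, ATAC5 and ATAC6 for the 10 best-ranked regions, 2 further distal regions and the 3 lowest-ranked regions, named by the nearest protein-coding gene, with the highest Input count (bars) and the range of the lowest counts of any peak in ATAC3, ATAC4 and ATAC7 (grey band, 26 to 28). Zswim6, Rybp and Man1a2 stand highest, and the counts of Mtrf1 and Gm9733 lie between 27 and 43, at or just above the band.

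Genes were assigned a region when it lay in the gene body or within 10000 bases of it. This held for 1048 of 22238 protein-coding genes (4.71%), and 390 (1.75%) had a region within 1000 bases of a start site. Genes with a region were longer, with a median of 26272 bases against 15512.5 for all protein-coding genes. Of 293 distinct genes in 16 lists of lineages, pathways and cell types, 27 had a region (9.22%) and 11 had it at a start site (3.75%). The listed genes had a median length of 33367 bases, and among genes with a region of any kind the share was 10.2% for listed and 6.73% for all protein-coding genes. Counts per list were between 0 and 3 genes, and no list is called different from the background.

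In the osteoblast list, 3 of 20 genes had a region. Bmp2, a ligand that drives bone formation, had it in a coding exon (chr2:133380099-133380590) with 113, 80, 86 and 98 reads in ATAC1, ATAC2, ATAC5 and ATAC6 over 20 to 38 in Input. Runx2, the main transcription factor of osteoblasts, had it in an intron (chr17:44791444-44791775) with 110, 56, 117 and 65 reads over 16 to 21 and an AP-1 match. The region assigned to Col1a1, the gene of type I collagen, lay outside the gene body at the start site of another gene (chr11:94819146-94819699), with 78, 225, 215 and 187 reads over 23 to 45. In the chondrocyte list 2 of 20 genes had a region. Trps1, a repressor of the GATA type active in growth plate cartilage, held 2 in introns, the stronger (chr15:50698454-50698645) with 44, 162, 172 and 122 reads over 3 to 6 in Input. The other (chr15:50701829-50701955) had 77, 82, 111 and 53 over 5 to 9. Pthlh, which encodes a peptide that delays chondrocyte maturation, had a region at its start site (chr6:147212354-147212752) with 52, 58, 109 and 76 reads over 23 to 48. Lpin1 was the sole gene of 19 in the adipocyte list. By percentile and by rank, ATAC1 was the lowest of the 4 libraries at Bmp2, Col1a1, Lpin1 and the stronger Trps1 region and the highest at Runx2 and Pthlh.

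Of the 20 niche factors, Angpt1 and Fgf2 had a region. Angpt1, a ligand of the Tie2 receptor on blood stem cells and endothelium, had it in an intron (chr15:42506057-42506590) with 100, 96, 67 and 63 reads over 8 to 16 in Input, and no peak of the other 3 libraries within 607246 bases. Fgf2, a growth factor also counted in the PDGF and FGF list, had it at an internal start site (chr3:37247275-37247666) with 94, 131, 318 and 65 reads over 24 to 81. The second gene of that list of 20 was Fgfr2, a receptor, with an intronic region at 78, 41, 58 and 65 reads. Of 20 mesenchymal transcription factors, Meis1 alone had a region, which lay outside its body and held 51, 88, 121 and 144 reads over 9 to 40. In the list of 14 factors taken from the regulons of the study, Trps1 and Runx2 had a region.

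Wnt genes with a region were 3 of 25. At the start site of Sfrp1, a secreted Wnt antagonist (chr8:24521416-24521958), there were 62 reads in ATAC1, 148 in ATAC2, 375 in ATAC5 and 120 in ATAC6 over 23 to 60 in Input, and the nearest peak of the other 3 libraries was 153773 bases away. At the start site of Fzd8, a Wnt receptor on chromosome 18, there were 89, 253, 205 and 248 reads over 13 to 37, with the nearest such peak 237841 bases away. Both were therefore promoters with no peak of ATAC3, ATAC4 or ATAC7 anywhere near, and ATAC1 was the lowest library in both by percentile and by rank. Tcf7l1, a repressing transcription factor of the pathway, had 47, 114, 117 and 110 reads over 17 to 25. In the TGF-β and BMP list, 3 of 25 genes had a region, namely Bmp2, the receptor gene Acvr1 with 38, 82, 58 and 52 reads over 10 to 16 in Input, and the signal transducer gene Smad3 with 36, 101, 81 and 96 reads over 10 to 24.

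In the Notch and Hedgehog list, 3 of 20 genes had a region. Rbpj, the DNA-binding factor of Notch signals, had it in an intron (chr5:53985444-53985798) with 73, 119, 151 and 149 reads over 5 to 6 in Input, folds of 17.9, 37.5, 51.6 and 39.0. Ptch1, the Hedgehog receptor, had it at an internal start site (chr13:63664446-63665597) with 132, 61, 160 and 174 reads over 30 to 56. Heyl, a Notch target, had it at an internal start site (chr4:122916876-122917352) with 202, 111, 232 and 117 reads over 31 to 57. By percentile and by rank ATAC1 was lowest at Rbpj (percentile 6.88 against 64.5 to 68.8), whereas ATAC2 was lowest at Ptch1 and Heyl.

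The AP-1 and immediate early list had 3 of 20 genes. The regions lay 8997 bases from the start of Klf6, at its far edge, with 82, 124, 273 and 101 reads, 5090 bases from the start of Jund with 114, 127, 100 and 52 reads, and in an intron of Bach1 with 56, 80, 110 and 86 reads. Of the matrix genes, Fbn1, the gene of fibrillin-1, had a region at an internal start site (chr2:125331708-125332412) with 134, 114, 511 and 66 reads over 27 to 138 in Input, and Col1a1 was the other of 20. The focal adhesion list had 3 of 20 genes. These were the crosslinker gene Actn1 with 101, 57, 100 and 127 reads, the integrin gene Itgb5 with 68, 136, 132 and 145 and the adaptor gene Pxn with 79, 81, 70 and 54.

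Genes used to sort the cells had no region (0 of 9), nor had haematopoietic marker genes (0 of 19), of which 14 had a region of some kind in these libraries. Endothelial genes had 2 of 20. The start site of Fli1, an ETS factor of endothelium and blood (chr9:32347923-32349845), had 202, 76, 173 and 131 reads over 33 to 66 in Input. The region assigned to Eng, a co-receptor of TGF-β on endothelium, lay outside the gene with 54, 44, 85 and 47 reads over 8 to 14. The part of cells of other types in the selection was not tested.

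Few genes held several regions. There were 998 genes with 1 region, 48 with 2, 1 with 3 and 1 with 5. The gene with 5, Gm20388, is a gene model of 4434882 bases that holds 243 regions of any kind. Grb10, an imprinted gene for an adaptor that restrains growth factor signals, held 3 of the 9 regions of any kind at its locus. The intronic region (chr11:11865784-11866386) had 77, 103, 195 and 89 reads over 13 to 26 in Input. The regions at its start sites had 49, 136, 132 and 123 reads over 17 to 42 (chr11:11925624-11926173) and 99, 163, 267 and 218 over 23 to 50 (chr11:11937099-11937638). The first was highest in ATAC5 and the next in ATAC2 by percentile and by rank, and the nearest peaks of the other 3 libraries lay 25882, 85722 and 97197 bases away. The 48 genes with 2 regions included 2700062C07Rik and 4932443L11Rik. There were 14 pairs of neighbouring regions within 10000 bases of each other and 3 within 1000, and the same counts were not computed for other regions.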

How the data were processed

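ATAC-seq was analysed in 7 libraries of wild type mouse bone marrow stromal cells with 1 Input library. The authors aligned reads to mm9 with bowtie and called peaks per library against Input with the two-sample mode of CisGenome, under limits on the p-value and the FDR. The submitters' processing notes also name bedtools and DiffBind. Shifting for the transposase and removal of duplicates are not given in the sources used here, so peak edges may be displaced by several bases. The extraction text in the labels describes RNA libraries and was not taken as the ATAC protocol. The deposited tables have no header, so columns were identified from their values. As deposited by the authors, they hold unnormalized counts: the reads of a library, and those of Input, that fall in an outer region around each peak. The fold over Input is a ratio made by the authors' peak caller, in which the scaled library reads are divided by Input reads with 0.01 added. The deposited ranking statistic, a signal column, was used for ranks. Coordinates equalled those of the separate deposited lists in all 164103 peaks.

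Peaks sharing 1 base were merged, and the best-ranked peak per library stood for a region. Positions and sequences came from the NCBIM37 genome and GENCODE vM1. Of the listed genes, 3 were found under another symbol and 2 were not found. Motifs were searched on both strands of 200-base windows. Shares have 95% Wilson intervals (Python 3.11.15, pandas 2.3.3, numpy 2.4.6), which cover counting error only. Merging, start-site distances and the motif search were tested on simulated data, and the Wilson intervals were not. With 1 library per title there was no test between libraries, and the peak lists give no total read numbers, only the scale factors to Input (1.01 to 1.71). The regions, gene lists and motifs were chosen with earlier results of these data known. Regions were named by rule: the 10 highest and 3 lowest mean percentiles, the 5 highest distal ones, up to 4 genes per list, the 5 genes with most regions, and the 2 regions nearest to the limit of the rule on each side, of which 1 item is not reported here. Alternatives were other overlap rules, list lengths, fold limits, windows and distances.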

Additional observations from a re-analysis of the deposited data

How the results depend on the processing

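The number of regions moved from 957 to 82 at equal list length and to 1717 with a fold of at least 5, and was within 1.5 times of 957 under the other 5 settings (709 to 987). At equal list length the promoter share was 62.2%, the median GC content 63.5%, the AP-1 share of all regions 10.98%, the CTCF share 2.44%, the AP-1 share of distal regions 25.8% and the number of genes 106, with main values of 41.5%, 55.5%, 14.2%, 4.81%, 21.4% and 1048. These shares rest on only 82 regions and are given without intervals, and other classes of region were not compared at this setting. With a fold of at least 5 the promoter share was 62.4%, GC 61.5%, AP-1 9.61%, CTCF 2.504% and genes 2069. The promoter share was 35.9% with start sites within 500 bases and 50.2% within 2500. Windows of 100 bases gave 8.25% AP-1 and 3.45% CTCF, and 12.7% and 5.36% in distal regions. The number of genes was 599 for gene bodies alone and 390 at start sites. The cause was not tested, beyond the smaller lists, windows and distances themselves. Alternatives on distal motif shares were chosen after seeing the data, and the distal CTCF share was 5.36% to 9.82% across them. No paired analysis was possible because no group had more than 1 library. Some regions had counts near the lowest of any peak in ATAC3, ATAC4 and ATAC7, and the part of depth in their calls was not tested.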
